A study of Mus musculus with 144 samples.

Results

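Chromosomes 16 and 17 (Chr16 and Chr17) are 2 of the 19 autosomes, and of 21 chromosomes in all, for which a copy number state was deposited per sorted nucleus. They were chosen by their measured share of cells with extra copies, which differed between the tumors studied, so that difference is a description and carries no test. Their members are 270 calls, 1 per chromosome in each of 135 single cells with a call, out of 2565 autosome calls. Single-cell whole-genome sequencing had been run on T-cell acute lymphoblastic lymphomas (T-ALLs) of 2 mice, here T-ALL 1 and T-ALL 2, both Lck-Cre+ with Mad2 f/f and p53 f/f, and on the thymus of 1 control mouse, Lck-Cre- with Mad2 wt and p53 wt, all of strain C57BL/6/Sv129. The paper describes 3 T-ALLs sequenced in this way, and only the states of these 2 were used here. Lck-Cre is driven by a T-cell promoter, so floxed alleles are recombined in the T lineage. Tumor-bearing mice were followed for 3 to 4 months and killed once breathing became labored, and no age was found for the thymus donor. The control carries neither floxed allele nor Cre, so effects of Cre, of Mad2 and of p53 cannot be told apart, and each group is 1 animal. Copy number states hold no marker genes, so the labelled tissue could not be checked against cell type markers.

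Mad2 acts in the spindle assembly checkpoint, which holds back exit from mitosis until the sister chromatids of every chromosome are attached to opposite spindle poles. Without it chromosomes missegregate, and a cell can gain or lose a whole chromosome with all of its genes at once. Mouse T-ALL is known for recurrent whole-chromosome gains and for activation of the Notch pathway, which commits progenitors to the T lineage and, with the pre-T cell receptor (pre-TCR), drives expansion of immature thymocytes.

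Chr16 held 679 protein-coding genes in the RefSeq annotation of GRCm38.p6, the assembly that mm10 denotes, or 3.29% of 20665 on the autosomes, and ranked 17th of the autosomes by that number. Chr17 held 1059 (5.12%) and ranked 9th. Both chromosomes carry a paralogous cluster of the miR-99, let-7 and miR-125 families, small RNAs that pair with target transcripts mainly through the seed, bases 2 to 8. These clusters were chosen after the annotation was seen. The mature sequences are printed because a gain of Chr16 and a gain of Chr17 each add copies of the same seeds, which are in capitals. All are on the + strand and are credited to RefSeq (GRCm38.p6), with the Chr16 member of each family before the Chr17 member.
mmu-miR-99a-5p (chr16:77598940-77598961): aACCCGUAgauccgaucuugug
mmu-miR-99b-5p (chr17:17830194-17830215): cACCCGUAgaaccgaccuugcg
mmu-let-7c-5p (chr16:77599672-77599693): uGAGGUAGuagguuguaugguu
mmu-let-7e-5p (chr17:17830366-17830387): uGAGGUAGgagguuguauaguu
mmu-miR-125b-5p (chr16:77646279-77646300): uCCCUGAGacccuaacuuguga
mmu-miR-125a-5p (chr17:17830817-17830840): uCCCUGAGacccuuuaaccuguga

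The seed was the same within each of these 3 pairs. Counted from the 5′ end, miR-99a and miR-99b were identical at 18 of 22 positions, let-7c and let-7e at 20 of 22, and miR-125b and miR-125a at 15 of 22. No gap was allowed, and miR-125a has 24 bases against 22 for miR-125b, so the later positions of that pair are out of register. Among 1738 mature mouse miRNAs listed, the miR-99 seed occurred in 3 entries, the let-7 seed in 13 and the miR-125 seed in 6. Of these, 1, 11 and 3 entries in the same order lay on chromosomes other than Chr16 and Chr17. Chr15 held 2 of the let-7 entries, so these seeds are not particular to the pair. No RNA was measured, so what follows is the number of gene copies and not expression.

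Chr16 was at 3 copies in nearly every cell of T-ALL 1 and at 2 copies in nearly every cell of T-ALL 2. In T-ALL 1 the states were 3 copies in 40 cells and 2 copies in 6, with no other state. In T-ALL 2 they were 1 copy in 1 cell, 2 copies in 39 and 3 copies in 4. In the thymus, 44 of 45 cells held 2 copies and 1 cell held 1. Mean copies were 2.87 ± 0.341 for T-ALL 1 (SD, n = 46 cells), 2.07 ± 0.334 for T-ALL 2 (SD, n = 44) and 1.98 ± 0.149 for the thymus (SD, n = 45). The highest state reached by Chr16 in any cell was thus 3.

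Chr17 had extra copies in most cells of both tumors, with a larger share of T-ALL 1 at 2 copies. In T-ALL 1 there was 1 copy in 1 cell, 2 copies in 14 cells, 3 copies in 30 and 4 copies in 1. In T-ALL 2 there were 2 copies in 2 cells, 3 copies in 40 and 4 copies in 2. All 45 thymus cells had 2 copies. Mean copies came to 2.67 ± 0.560 for T-ALL 1 and 3.00 ± 0.305 for T-ALL 2, against exactly 2 for the thymus.

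**Figure D1:**
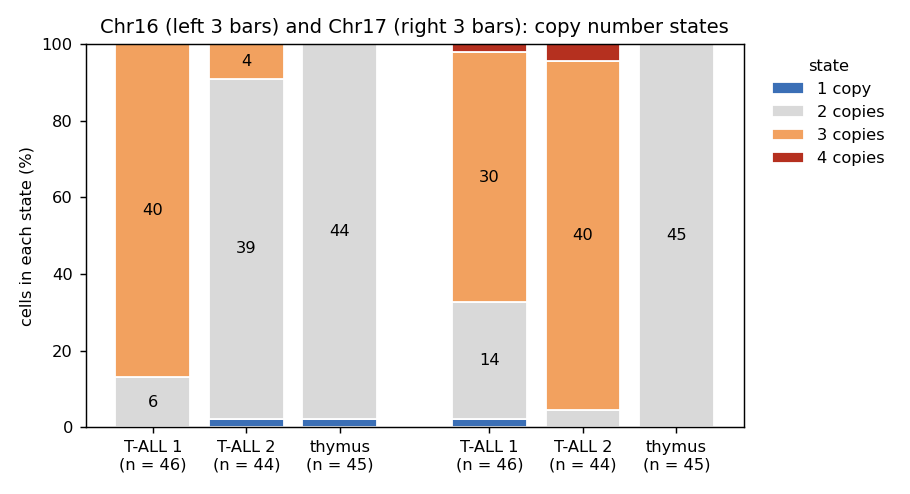
Percent of cells (y axis) in each copy number state of Chr16 (left 3 bars) and Chr17 (right 3 bars) for T-ALL 1, T-ALL 2 and the thymus, with cell numbers inside the larger segments. Chr16 was at 3 copies in 40 of 46 T-ALL 1 cells but in 4 of 44 T-ALL 2 cells, whereas Chr17 was at 3 copies in 30 and 40 cells of these tumors.

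A gain is a state above 2. For Chr16 the share of gained cells was 87.0% in T-ALL 1 (exact 95% interval 73.7% to 95.1%) against 9.09% in T-ALL 2 (2.53% to 21.7%), a difference of 77.9 percentage points (59.6 to 88.3). For Chr17 it was 67.4% in T-ALL 1 (52.0% to 80.5%) against 95.5% in T-ALL 2 (84.5% to 99.4%), a difference of -28.1 points (-44.0 to -11.0). The thymus had 0 gains of either chromosome in 45 cells, which allows a share of up to 6.67% by the limit of 3 counts and 7.87% by the exact interval. Intervals cover counting error over cells only, and how far such tumors vary from mouse to mouse was not measured.

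The intervals of T-ALL 1 and T-ALL 2 were apart for both chromosomes, as they were for 6 of the 19 autosomes (31.6%). Chr16 was the 1 autosome (5.26%) whose gain was more frequent in T-ALL 1 with intervals apart, and Chr17 was among the 5 (26.3%) for which it was less frequent. Ranked by share of gained cells, Chr16 was in place 2 in T-ALL 1 and in place 11 in T-ALL 2, while Chr17 was in place 4 and in place 3. The most common state was above 2 for both chromosomes in T-ALL 1, where 21.1% of autosomes had such a state, and for Chr17 alone of the pair in T-ALL 2, where 36.8% had one. These shares describe the choice of the chromosomes and are no result about them.

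**Figure D2:**
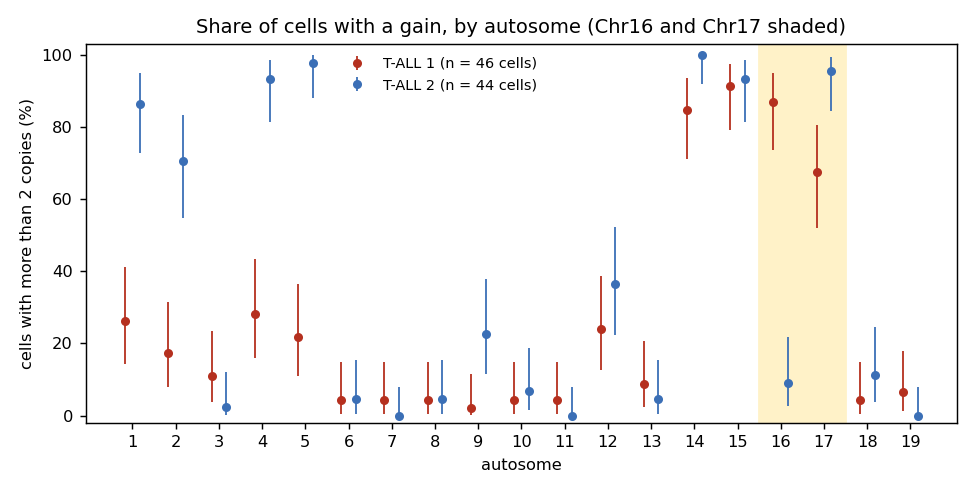
Percent of cells with more than 2 copies (y axis) for each of the 19 autosomes (x axis) in T-ALL 1 and T-ALL 2, with exact 95% intervals as bars and Chr16 and Chr17 shaded. On Chr16 the T-ALL 1 point (87.0%) is far above that of T-ALL 2 (9.09%), and on Chr17 the order is turned (67.4% and 95.5%).

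A few cells of T-ALL 1 stood apart and touch these shares. Cells 25, 27 and 41 had 2 copies throughout the autosomes, and cell 38 departed from them by an extra copy of Chr12. Whether these 4 cells came from the tumor or from normal tissue beside it cannot be told apart. Leaving them out gave a Chr16 gain in 40 of 42 cells (95.2%, 83.8% to 99.4%) and a Chr17 gain in 31 of 42 (73.8%, 58.0% to 86.1%). In T-ALL 2, cell 40 had 14 autosomes away from 2 copies and Chr8 at 0, and it was 1 of the 4 cells with a Chr16 gain. Without it the Chr16 share in T-ALL 2 was 6.98%.

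The pair of states in a cell had a different leading combination in each tumor, while 4 combinations were found in both. In T-ALL 1 the leading combination was 3 copies of Chr16 with 3 of Chr17, in 28 of 46 cells, followed by 3 copies of Chr16 with 2 of Chr17 in 10 cells. Another 4 cells had 2 copies of each, 2 cells had 2 of Chr16 with 3 of Chr17, 1 cell had 3 with 1 and 1 cell had 3 with 4. In T-ALL 2 the leading combination was 2 copies of Chr16 with 3 of Chr17, in 36 of 44 cells. The others there were 3 with 3 in 3 cells, 2 with 2 in 2 cells, and 1 with 3, 2 with 4 and 3 with 4 in 1 cell each. Thus 10 cells of T-ALL 1 had Chr16 at 3 and Chr17 at 2, a combination seen in 0 cells of T-ALL 2, whereas the main combination of T-ALL 2 was seen in 2 cells of T-ALL 1. These contrasts follow largely from the separate shares by which the chromosomes were chosen, and are no further result about their pairing.

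**Figure D3:**
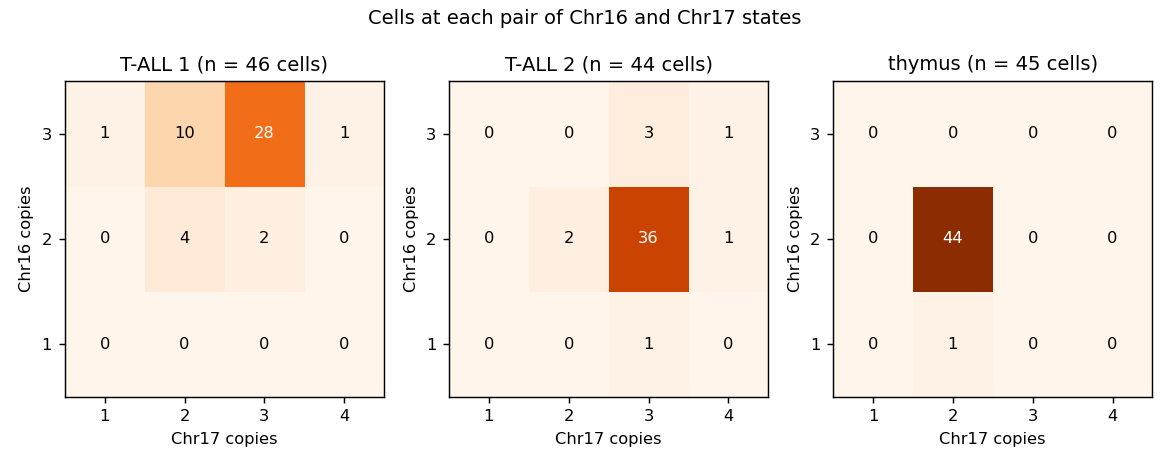
Number of cells at each pair of Chr17 copies (x axis) and Chr16 copies (y axis) in T-ALL 1, T-ALL 2 and the thymus. Most cells of T-ALL 1 sit at 3 copies of both (28 cells), most cells of T-ALL 2 at 3 copies of Chr17 and 2 of Chr16 (36 cells), and the thymus at 2 copies of both (44 cells).

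The copies of Chr16 and Chr17 summed to 5.54 ± 0.721 per cell in T-ALL 1 (SD, n = 46; lowest 4, median 6, highest 7). For T-ALL 2 the sum was 5.07 ± 0.501 (SD, n = 44; lowest 4, median 5, highest 7), and for the thymus it was 3.98 ± 0.149 (SD, n = 45). A sum of 6 was found in 28 T-ALL 1 cells but 4 T-ALL 2 cells, and a sum of 5 in 12 T-ALL 1 cells but 36 T-ALL 2 cells.

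Both chromosomes were gained together in 29 of 46 T-ALL 1 cells (63.0%, 47.5% to 76.8%) but 4 of 44 T-ALL 2 cells (9.09%, 2.53% to 21.7%). The product of the separate shares gives 27.0 cells for T-ALL 1 and 3.82 for T-ALL 2. In T-ALL 1, Chr17 was gained in 29 of 40 cells with a Chr16 gain (72.5%, 56.1% to 85.4%) and in 2 of 6 cells without it (33.3%, 4.33% to 77.7%). The difference of 39.2 points had an interval of -8.15 to 70.9 and rested on 6 cells without a Chr16 gain, and without the 4 cells named above it was -27.5 points. In T-ALL 2, Chr17 was gained in 4 of 4 cells with a Chr16 gain and in 38 of 40 cells without it. Cells of a tumor share ancestors and are not replicates, so no p-value is given for this or the next differences between cells. Their intervals treat cells as independent draws, so they leave out shared ancestry and are not to be read as tests.

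Cells of 1 class differed in their other autosomes. In T-ALL 1 the 29 cells with both gains had 21 distinct sets of autosome states, the 11 cells with Chr16 gained and Chr17 not had 8, and the 2 cells with Chr17 gained and Chr16 not had 2. In T-ALL 2 the 4 cells with both gains had 4 distinct sets and the 38 with Chr17 gained and Chr16 not had 27. In each tumor, some cells differed in no autosome except 1 of the pair. In T-ALL 1, cell 17 had 2 copies of Chr16 while cells 7, 9 and 29 had 3, all 4 cells with Chr14 at 4, Chr15 at 3 and Chr17 at 3 and 2 copies elsewhere. In T-ALL 2, cell 20 had 2 copies of Chr17 while cells 17, 25 and 44 had 3, all with Chr1, Chr2, Chr4 and Chr5 at 3, Chr14 and Chr15 at 4 and 2 copies elsewhere.

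In T-ALL 1 a gain of Chr17 went with Chr1 and with a higher dose of Chr14. Chr1 was gained in 12 of 31 cells with a Chr17 gain (38.7%, 21.8% to 57.8%) and in 0 of 15 cells without it (0% to 21.8%). The difference was 38.7 points (11.1 to 57.8). Chr1 was picked from 18 autosomes by this difference in the same cells, so an interval clear of 0 is no support for it. All 12 cells with a Chr1 gain also had a Chr17 gain. Such an overlap was not particular to Chr1, since 5 of 18 other autosomes were gained only in cells with a Chr17 gain. All 12 cells had a Chr16 gain as well. With fewer cells the interval for Chr1 covered 0, at 35.7 points in odd-numbered cells (-5.00 to 64.9) and 41.2 in even-numbered cells (-10.1 to 67.1). These sets are parts of the same cells in which Chr1 was picked, so they are no independent check. Chr14 was gained in 29 of 31 cells with a Chr17 gain (93.5%) and in 10 of 15 cells without it (66.7%). Chr15 was gained in 31 of 31 cells with a Chr17 gain and in 11 of 15 without it (73.3%). Of 18 other autosomes these 3 differed by 25 points or more (16.7%), and without the 4 near-diploid cells named above only Chr1 did (5.56%), with Chr14 at 10 of 11 and Chr15 at 11 of 11 cells without a Chr17 gain.

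The number of Chr14 copies separated the cells more sharply than its gain, a measure chosen after the states were seen. Because it was chosen in the same cells, an interval clear of 0 is no support for a difference. Chr14 was at 4 or more copies in 23 of 31 cells with a Chr17 gain (74.2%, 55.4% to 88.1%) and in 1 of 15 cells without it (6.67%, 0.169% to 31.9%), a difference of 67.5 points (36.0 to 82.9). The 1 exception, cell 30, had 5 copies, so the state of exactly 4 was found in 23 cells with a Chr17 gain and in 0 cells without it. Without the 4 near-diploid cells the difference was 65.1 points (27.8 to 81.6). In odd-numbered cells it was 78.6 points (33.9 to 95.3) and in even-numbered cells 53.9 (-0.455 to 79.0), an interval that covers 0. Both sets are parts of the cells in which the measure was chosen, so they are no independent check. Within the cells with a Chr16 gain, Chr14 was at 4 copies in 22 of the 29 cells that also had a Chr17 gain (75.9%), while 9 of the 11 cells with no Chr17 gain had Chr14 at 3, 1 had it at 2 and 1 at 5.

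For Chr15, which carries Myc, the difference was smaller, with an interval on both sides of no difference. It was at 4 or more copies in 17 of 31 cells with a Chr17 gain (54.8%, 36.0% to 72.7%) and in 7 of 15 cells without it (46.7%, 21.3% to 73.4%), a difference of 8.17 points with an interval of -24.5 to 39.2. Without the 4 near-diploid cells it was -8.80 points (-40.4 to 28.6). In T-ALL 2 Chr14 was at 4 copies in 37 of 42 cells with a Chr17 gain and in both cells without it, so those 2 cells carried the high dose of Chr14 with a diploid Chr17. Whether the tumors differ in this relation was not tested.

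**Figure D4:**
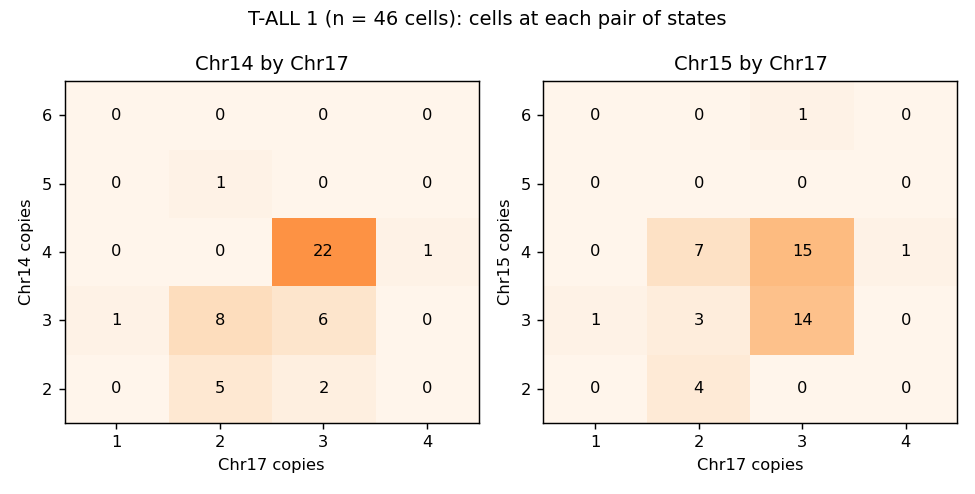
Number of T-ALL 1 cells at each pair of Chr17 copies (x axis) and Chr14 copies (left, y axis) or Chr15 copies (right, y axis), n = 46 cells. Chr14 at 4 copies is found in 22 cells at 3 copies of Chr17 and in 0 cells at 2 copies, while Chr15 at 4 copies is found in 15 and 7 cells.

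The remaining autosomes differed less with Chr17 in T-ALL 1. Chr4 was gained in 11 of 31 cells with a Chr17 gain and 2 of 15 without it, Chr5 in 9 and 1, Chr2 in 7 and 1, and Chr3 in 5 and 0. Chr12 was the other way, at 6 of 31 cells with a Chr17 gain and 5 of 15 without it. So was Chr7, at 0 of 31 and 2 of 15, and by smaller differences Chr9, Chr10, Chr18 and Chr19. Over the 17 autosomes other than Chr16 and Chr17, 3.94 ± 2.02 were gained per cell with a Chr17 gain and 2.53 ± 2.03 per cell without it (SD over 31 and 15 cells). That gap of 1.40 was 0.572 without the 4 near-diploid cells. The SDs give the spread between cells, and the error of the gap was not measured.

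By the same threshold of 25 points, Chr1, Chr14, Chr15 and Chr17, 4 of 18 autosomes (22.2%), were gained more often in T-ALL 1 cells with a Chr16 gain than in those without it. Chr15 was gained in 40 of 40 cells with a Chr16 gain and in 2 of 6 without it, Chr14 in 37 of 40 and 2 of 6, and Chr1 in 12 of 40 and 0 of 6. The intervals of the difference covered 0 for Chr1 (-17.9 to 46.5 points) and for Chr17. The comparison rests on 6 cells, 4 of them the near-diploid ones, and leaving those out left 2 cells, with differences of 30.0 points for Chr1, -7.50 for Chr14, 0 for Chr15 and -27.5 for Chr17. Other autosomes gained per cell were 3.78 ± 1.93 with a Chr16 gain and 1.50 ± 2.35 without it (SD over 40 and 6 cells). That gap of 2.28 was -0.225 without the 4 near-diploid cells, so its direction depended on them.

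In T-ALL 2 the 4 cells with a Chr16 gain (cells 1, 14, 27 and 40) were set against the 40 cells without it. By the same threshold Chr5, Chr9, Chr12 and Chr13 stood out, again 4 of 18 autosomes (22.2%). Chr12 was gained in 0 of 4 cells with a Chr16 gain and in 16 of 40 without it, Chr9 in 2 of 4 and 8 of 40, and Chr13 in 2 of 4 and 0 of 40. Chr5 was gained in 3 of 4 cells with a Chr16 gain and 40 of 40 without it. Cell 40 accounts for Chr5, since without it 3 of 3 cells with a Chr16 gain had extra Chr5. It also holds 1 of the 2 Chr13 gains. Each share over 4 cells has an interval wider than 60 points, for instance 0% to 60.2% for Chr12. The interval of the difference for Chr13 was 5.87 to 93.2 points, and without cell 40 it reached below 0 (-0.333 to 90.6). For the other 3 it covered 0. These 4 autosomes were picked from 18 by their differences in the same cells, so an interval clear of 0 is no support for a difference. Chr14 was gained in all cells on both sides. Other autosomes gained per cell were 6.75 ± 0.5 with a Chr16 gain and 6.30 ± 1.09 without it (SD over 4 and 40 cells), a gap of 0.45 that was 0.7 without cell 14 and turned to -0.475 when the copies of those autosomes were summed.

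For Chr17 in T-ALL 2 only cells 3 and 20 lacked the gain, too few for a comparison by share. Cell 3 had Chr1 and Chr5 at 3, Chr4 and Chr14 at 4 and Chr8 at 1, with Chr15 at 2. Cell 20 is described above. The number of other autosomes gained per cell was 6.40 ± 1.01 with a Chr17 gain and 5.00 ± 1.41 without it (SD over 42 and 2 cells). That gap of 1.40 was 2.40 without cell 20 and 0.405 without cell 3.

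**Figure D5:**
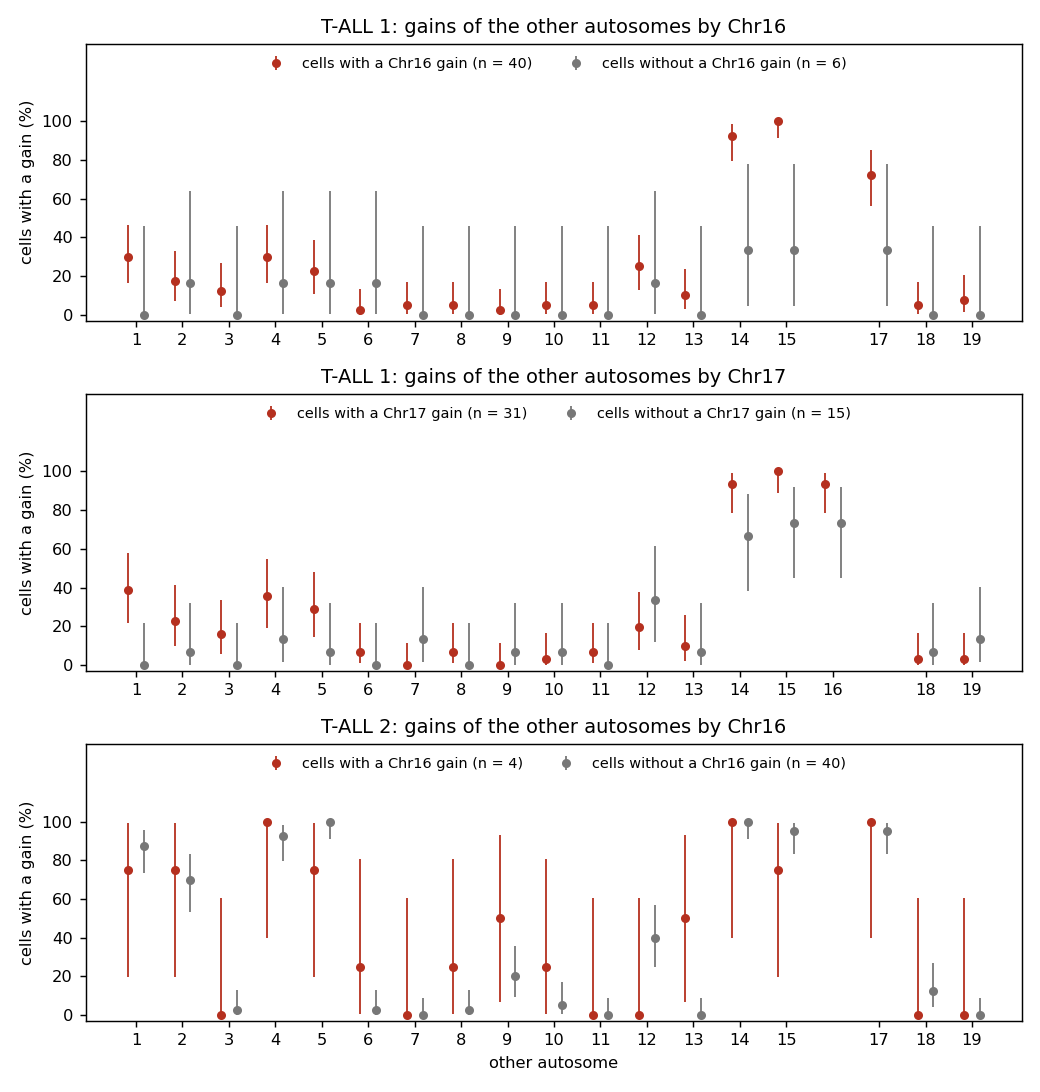
Percent of cells with more than 2 copies (y axis) of each other autosome (x axis), in cells with (red) and without (grey) a Chr16 gain in T-ALL 1 (top), a Chr17 gain in T-ALL 1 (middle) and a Chr16 gain in T-ALL 2 (bottom), with exact 95% intervals as bars. In the middle panel Chr1 is at 38.7% with a Chr17 gain and at 0% without it, and the top and bottom panels have wide intervals because 6 and 4 cells make up their smaller side.

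States of Chr16 and Chr17 held by 6 or fewer cells of an animal are given cell by cell where not named above. In T-ALL 1, cell 37 combined 1 copy of Chr17 with 3 of Chr16 and was the only tumor cell with Chr17 below 2. It also had Chr4 at 1 and Chr5, Chr12, Chr14, Chr15 and Chr19 at 3. Cell 23 of T-ALL 1 had Chr17 at 4 with Chr14 and Chr15 at 4 and Chr1 and Chr16 at 3. Cell 44 of T-ALL 1 had Chr16 at 2 although Chr2, Chr4, Chr5, Chr6, Chr14 and Chr17 were at 3 and Chr15 was at 4. In T-ALL 2, cell 23 had Chr16 at 1 and 8 other autosomes gained. The cells of T-ALL 2 with 4 copies of Chr17 were cell 14, which also had Chr16 at 3, and cell 46, which had Chr7 and Chr18 at 1. The 1 thymus cell with Chr16 at 1, cell 12, also had Chr18 at 1.

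Wells that received 10 nuclei gave Chr16 at 3 and Chr17 at 4 for T-ALL 1, Chr16 at 2 and Chr17 at 3 for T-ALL 2, and 2 copies of each for the thymus. The well differed from the most common single-cell state only for Chr17 of T-ALL 1, where 1 of 46 single cells had 4 copies and the mean was 2.67. The reason for this mismatch was not tested, and the T-ALL 1 comparisons by Chr17 gain rest on those single-cell calls. The wells with 0 nuclei had no call.

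Genes on these chromosomes take the state of the whole chromosome, so all genes on Chr16 share 1 value and all on Chr17 another. Of 176 genes in 6 lists, 11 lay on Chr16 and 25 on Chr17. Of all autosomal protein-coding genes, 3.29% lay on Chr16 and 5.12% on Chr17. The lists were chosen with earlier results of these data known. Whether any list holds more genes of either chromosome than these shares give was not tested, so the counts below only locate the genes. Of 35 genes of the Notch pathway and pre-TCR list, 4 lay on Chr17 and 1 on Chr16. Those on Chr17 were Dll1 (17:15367354-15376932), a Notch ligand, the receptor genes Notch3 (17:32120820-32166896) and Notch4 (17:34564286-34588543), and Ptcra (17:46755663-46763712), which encodes the invariant pre-TCR alpha chain. The 1 on Chr16 was Hes1 (16:30065357-30067796), a transcriptional repressor and direct Notch target. The ligand, the receptors and the pre-TCR chain thus averaged 2.67 copies for T-ALL 1, 3.00 for T-ALL 2 and 2.00 for the thymus, and the target Hes1 2.87, 2.07 and 1.98 copies in the same order.

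Of 31 T-ALL oncogenes, Chr17 held 3 and Chr16 held 1. Ccnd3 (17:47505051-47599689) encodes cyclin D3, which drives proliferation of immature thymocytes, Pim1 (17:29490785-29496111) encodes a serine/threonine kinase, and Notch3 is named above. Erg (16:95359169-95586600) encodes an ETS transcription factor. In the 28 T-ALL 1 cells with 3 copies of both chromosomes all of them were at 3, while in the 36 T-ALL 2 cells with the leading combination Ccnd3, Pim1, Notch3 and Ptcra were at 3 and Erg at 2.

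Of 32 T-ALL tumor suppressors, 4 lay on Chr16 and 2 on Chr17. Runx1 (16:92601466-92826074) encodes a transcription factor required for blood stem cells and T-cell development, and it was at 3 copies in 40 T-ALL 1 cells but 4 T-ALL 2 cells. With it on Chr16 were Crebbp, a histone acetyltransferase gene, Usp7, a deubiquitinase gene, and Socs1, which encodes an inhibitor of JAK-STAT signaling. Chr17 held Tsc2, whose product restrains mTORC1, and Cdkn1a, the gene of the p21 cell-cycle inhibitor and a p53 target. Of 90 tumor cells, 2 had fewer than 2 copies of either chromosome, cell 37 of T-ALL 1 for Chr17 and cell 23 of T-ALL 2 for Chr16.

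Of 32 spindle checkpoint and kinetochore genes, 3 lay on Chr17 and 0 on Chr16. They were Mad2l1bp (17:46147385-46153551), whose product p31comet binds Mad2 and counteracts it, Sgo1, which protects centromeric cohesion, and Ndc80, a subunit of the outer kinetochore. Of 27 genes of the MHC and antigen presentation list, 14 lay on Chr17, where the mouse H2 complex is located, including H2-K1, H2-D1, H2-Ab1, Tap1 and Psmb8. Ciita, the activator of MHC class II genes, was the 1 on Chr16. Of 24 interferon and related cytokine receptor genes, 4 lay on Chr16 and 0 on Chr17. These were Ifnar1 and Ifnar2, which form the type I interferon receptor, Ifngr2 and Il10rb. The H2 genes were accordingly above 2 copies in 67.4% of T-ALL 1 cells and 95.5% of T-ALL 2 cells, and the interferon receptor genes in 87.0% and 9.09%.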

How the data were processed

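The authors deposited 1 table per animal with whole-number copy number states (0 to 6) for each chromosome in each well, 144 libraries in all. Per the labels, nuclei were stained with PI and Hoechst and sorted into plates, DNA was digested with MNase, and indexed libraries were sequenced. Bowtie2 2.1.0, SAMtools 0.1.18, bcl2fastq 1.8.2 and mm10 are credited to the processing notes of the submitters. The methods state that G1 cells were sorted and that single-cell sequencing data went through AneuFinder, and the tables themselves name no program. A state is relative to the rest of its library and covers a whole chromosome. The tables hold no read counts, so depth is unknown.

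Of 46 cells sorted per animal, calls were present for 46 (T-ALL 1), 44 (T-ALL 2) and 45 (thymus), and wells of dashes were left out. Shares have Clopper-Pearson 95% intervals, and intervals of differences combine their bounds by square and add. No test was made. The chromosomes and gene lists were chosen with earlier results of these data known. Named were list genes on Chr16 or Chr17, other autosomes whose gain share differed by 25 points or more with 4 or more cells on each side, Chr14 and Chr15, and cells with a state held by 6 or fewer cells of the animal. All 176 genes matched RefSeq (GRCm38.p6). Alternatives changed the reference state, the cells kept, the interval and the measure. The code, in Python 3.11.15 with pandas 2.3.3, NumPy 2.4.6, Matplotlib 3.10.9 and SciPy 1.17.1, was tested on simulated data.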

Additional observations from a re-analysis of the deposited data

How the results depend on the processing

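Of 177 alternative values over 18 results, 159 stayed inside the interval or SD around the main value with the sign kept, 12 moved out of it and 6 changed sign. That SD was over the cells with the gain only. Several values could not move: the Wilson interval keeps the share, no T-ALL 1 or thymus cell had a state of 0, and thymus shares stayed at 0%. Wide intervals also counted a fall from 39.2 to 5.83 points as inside (Chr17 share by Chr16 gain, T-ALL 1, without fully diploid cells). The 159 are thus no measure of robustness. With the most common state of a tumor in place of 2 copies, a clonal gain no longer counts as one by construction: gained shares became 0% for Chr16 and 2.17% for Chr17 in T-ALL 1 and 4.55% for Chr17 in T-ALL 2, and both gained 0% in T-ALL 1 and 2.27% in T-ALL 2. T-ALL 1 minus T-ALL 2 became -9.09 points for Chr16 and -2.37 for Chr17. On that reference the Chr17 share by Chr16 gain in T-ALL 2 differed by 22.5 points, other autosomes gained by -0.778 (Chr17, T-ALL 1), -0.857 (Chr17, T-ALL 2) and 1.03 (Chr16, T-ALL 2), and no value by Chr16 could be had in T-ALL 1. Without the 4 near-diploid T-ALL 1 cells, the Chr16 share was 95.2%, the Chr17 share by Chr16 gain differed by -27.5 points and other autosomes gained by -0.225. In T-ALL 2, other autosomes gained differed with Chr16 by -0.475 when copies were summed, and with Chr17 by 2.50 in odd-numbered and 0.318 in even-numbered cells and by 0.405 to 2.40 with each cell left out in turn, since only cells 3 and 20 lacked that gain: without cell 20 it was 2.40 and without cell 3 it was 0.405. Counting Chr14 above 2 copies in place of 4 or more gave 26.9 points by Chr17 gain. No paired analysis was possible because cell numbers only name wells and no test was made. All values are limited by 1 animal per group, an unknown depth and states given for whole chromosomes only. The measures on Chr14 dose and Chr1, and leaving out cell 40, were added after the states had been seen.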
